A study of Mus musculus with 25 samples.

Results

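Broad H3K27ac domains of DN3-like T cell precursors are described here, together with the genes inside them and the peaks of SMC1, NIPBL, CTCF and TCF-1 that they hold. H3K27ac is acetylation of lysine 27 of histone H3, a mark of active promoters and enhancers, measured by chromatin immunoprecipitation followed by sequencing. A domain was a peak of at least 10 kb in the first H3K27ac list of empty vector cells that overlapped a peak of at least 10 kb in the second list. Of the 38827 peaks of the first list, 768 met this rule (1.98%). The members were thus chosen by the measured widths in empty vector cells, so widths, and the comparison of H3K27ac between empty vector and knockout, are given as descriptions with no test.

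The study, on TCF-1 and the folding of the genome in early T cells, deposited 25 peak lists from 2 mouse cell lines. Scid.adh, a thymic lymphoma line kept as a model of the DN3 stage, was labelled either as empty vector or as a knockout of TCF-1, the factor encoded by Tcf7. H3K27ac, SMC1, NIPBL and CTCF each had 2 lists with the empty vector and 2 in the knockout, and TCF-1 had 2 lists, both with the empty vector. NIH-3T3 fibroblasts, which do not belong to the T lineage, were untreated or induced to express TCF-1, with 2 CTCF lists and 1 SMC1 list in each state and 1 TCF-1 list in the induced state. How the knockout and the induction were made, whether the knockout was 1 clone, and whether replicates came from separate cultures is not stated in the labels, so every spread below is the spread between lists and may be technical. No list measured TCF-1 in the knockout cells, so the knockout itself could not be checked from the peaks.

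Enhancers that lie close together, each loaded with transcription factors and acetylated nucleosomes, can merge into one long acetylated stretch, and such stretches are known to gather around genes that define a cell type. TCF-1 is an HMG-box factor that binds DNA together with other regulators of T cell identity. Cohesin, the ring complex that contains SMC1, is loaded onto chromatin with the help of NIPBL and extrudes loops that tend to stop at CTCF.

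Most DN3 markers carried H3K27ac in these cells. Of 12 genes known from DN3 thymocytes, 11 had H3K27ac over their body in both empty vector lists, the exception being Rag2, and 8 lay in a domain. Peaks in both lists met 1 of 4 B lineage markers, 1 of 5 myeloid markers, 1 of 4 natural killer and innate markers and 1 of 7 fibroblast markers. The markers met were Cd79a, Spi1, Tbx21 and Pdgfrb, in that order. Among those with none were Pax5, Ebf1, Cebpa, Csf1r, Lyz2, Mpo, Klrb1c, Ncr1, Eomes, Col1a1, Col1a2 and Col3a1. The only marker of another cell type in a domain was Tbx21.

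Read totals were not in the lists, so depth is unknown and a missing peak is only a peak that was not called. H3K27ac lists were of similar size (36544 to 42180 peaks, 89.5 to 91.6 Mb), whereas the SMC1 lists numbered 70438 and 77587 peaks in empty vector cells against 88886 and 96416 in the knockout. NIPBL had 9206 and 15232 against 23951 and 14107 peaks, CTCF 42214 and 53729 against 62353 and 55149, and TCF-1 4978 and 5356.

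Sequences of the domains themselves were not read, since no genome was used here, but 16 microRNA genes overlapped domains, and 2 of these are printed because their microRNAs are well known in blood cells and in lymphoid growth. Mir142, which gives rise to a microRNA abundant across blood lineages, lay in a domain of 15.6 kb on chromosome 11. Mir21a lay in a domain of 32.0 kb on the same chromosome. Their mature forms, from RefSeq annotation of GRCm38.p6, are written 5′ to 3′ with the seed (bases 2 to 8) in capitals, and none of the 4 seeds is shared.
mmu-miR-142a-3p: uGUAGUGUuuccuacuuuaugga
mmu-miR-142a-5p: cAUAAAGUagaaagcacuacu
mmu-miR-21a-5p: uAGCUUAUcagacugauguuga
mmu-miR-21a-3p: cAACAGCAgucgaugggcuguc
The Mir142 domain (chr11:87744718-87760338) held 2 and 1 TCF-1 peaks and the Mir21a domain (chr11:86568638-86600663) held none. In the knockout lists, H3K27ac covered 14.1 and 14.6 kb of the Mir142 domain against 14.4 kb in the second empty vector list, and 31.1 and 30.9 kb of the Mir21a domain against 29.2 kb. Neither domain was covered less in both knockout lists than in that empty vector list.

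Promoter windows, the 250 bases before each start in the RefSeq table of the same build, were searched on both strands for short words. For TCF/LEF factors these were CTTTGAT, the word CTTTGAA, the word CTTTGTT and the word CTTTGTA. The others were TGTGGT for RUNX, TGGGAA for RBPJ (the DNA-binding partner of Notch), GGAAGT for ETS factors and CAGCTG for E proteins. The RBPJ and ETS words share the letters GGAA and can overlap. A TCF/LEF word stood in 13.2% of all 21262 windows and in 10.4% of the 307 windows inside domains. Of the 46 windows inside domains that met a TCF-1 peak of both lists, 1 held such a word (2.17%), against 8.81% of the 1907 windows with TCF-1 outside domains. That window belongs to Fdx1, which encodes the mitochondrial electron carrier ferredoxin, and is printed with the word in capitals (minus strand, chr9:51963603-51963852).
Fdx1: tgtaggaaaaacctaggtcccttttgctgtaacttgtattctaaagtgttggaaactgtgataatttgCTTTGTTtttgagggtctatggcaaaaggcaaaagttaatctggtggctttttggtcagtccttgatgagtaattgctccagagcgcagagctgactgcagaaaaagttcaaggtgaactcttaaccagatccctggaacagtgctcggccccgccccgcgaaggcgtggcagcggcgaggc
The window of Tbx21, which encodes the T-box factor T-bet of type 1 lymphocytes, is shown because its domain was among those with less H3K27ac in the knockout. An ETS word and an RBPJ word, both read on the other strand and so printed as their reverse complements ACTTCC and, further on, TTCCCA, are in capitals (minus strand, chr11:97115332-97115581), and no TCF/LEF word was found.
Tbx21: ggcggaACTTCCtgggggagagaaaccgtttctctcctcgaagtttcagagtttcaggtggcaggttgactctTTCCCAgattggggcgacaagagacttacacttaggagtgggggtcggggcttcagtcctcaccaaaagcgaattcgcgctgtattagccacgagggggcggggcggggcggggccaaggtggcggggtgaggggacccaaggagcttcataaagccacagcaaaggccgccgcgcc
These are matches of letters in a window and were not tested as binding sites.

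The domains together spanned 12.8 Mb, which was 14.3% of the bp in the first empty vector list. Widths ran from 10.002 kb to 61.8 kb, with quartiles of 11.8, 14.1 and 18.9 kb, and 165 domains were at least 20 kb and 45 at least 30 kb wide. Chromosome 11 held 80, chromosome 2 held 73, chromosome 1 held 62 and the X chromosome 6. Domains often neighboured each other: 92 of the gaps between consecutive domains were under 10 kb and 184 under 50 kb. The authors' fold enrichment had a median of 5.67 over the domains and 3.33 over all peaks of the list. A further 213 peaks of the first list were at least 10 kb wide without a partner of that width in the second list. At the threshold, the narrowest members were peaks of 10002, 10002, 10005, 10011 and 10035 bp at Pitpnm2, near Gm52008, near Rpl34, at Cep57l1 and Sesn1, and at Etv3. The nearest peaks outside it were 9978, 9973, 9971, 9953 and 9953 bp wide, near Mn1, at Dnajb12, at Il20ra, at Ephb4 and near Prex1.

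Gse1 held the widest domain (61.8 kb, chr8:120322534-120384285) and 4 further ones. The next was a stretch of 59.9 kb that met no protein-coding gene and lay 278 kb from Runx1, the gene of a master factor of blood and T cell development. A domain of 58.3 kb on chromosome 15 (chr15:63245837-63304156) lay 472 kb from its nearest gene Gsdmc and 1.26 Mb from Myc. Sla, which encodes an adaptor that dampens T cell receptor signals, lies inside the thyroglobulin gene Tg and had a domain of 53.1 kb. The other domains among the 10 widest were at Sema7a and Ubl7 (48.0 kb), at Nfib (47.4 and 41.9 kb), near Klf13 (46.6 kb), at Smad3 (46.2 kb) and 152 kb from Sdk2 (42.8 kb). Each of these 10 was still covered over 31.4 kb or more in both knockout lists.

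Gene bodies of protein-coding genes met 532 of the 768 domains: 460 met 1 gene and 72 met 2 or more. The maximum was 9, in the histone gene cluster of chromosome 13. Another 236 domains (30.7%) met none, at a median of 36.7 kb from the nearest gene and at most 1062 kb. Wholly inside 1 gene lay 288 domains (37.5%), and 201 (26.2%) held a gene start, for which 79.9% of protein-coding genes had an entry. Starts were in 10.7% of H3K27ac regions under 2 kb, 37.8% of those of 2 to 5 kb and 24.5% of those of 5 to 10 kb, so the domains were not the width class with most starts. In all, 534 genes had their body in a domain (2.44% of 21883) and 253 had their start in one (1.45% of those with an entry). Several domains in 1 gene were common, with 75 genes holding at least 2 and 21 at least 3. Msra had 6, Gse1 5, Nck2 and Rxra 4 each, and Nfib, Jazf1, Septin9, Cd247, Runx1, Ptprc and Tox2 were among those with 3.

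Of 26 factors of the T lineage, 15 had their body in a domain, beside the 2.44% of all protein-coding genes. These were Tcf7, Bcl11b, Gata3, Runx1, Ikzf1, Ikzf2, Ikzf3, Satb1, Tox, Tox2, Ets1, Fli1, Tcf12, Hes1 and Zbtb7b. By gene start the count was 8 of 19, beside 1.45%. The median body of the list was 69.4 kb long, and a gene of that length can meet more regions than a short one. Tcf7 itself had a domain of 16.8 kb over its start and a second one of 31.6 kb at 7.64 kb from its body. Bcl11b, required for commitment to the T lineage, had domains of 13.2 and 14.6 kb in its body and another of 29.9 kb at 137 kb from it.

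Among genes of the pre-T cell receptor and its signalling, 14 of 29 had their body in a domain and 8 of 21 their start, beside 2.44% and 1.45% of all. They included the receptor chain Ptcra, the CD3 chains Cd3d, Cd3g and Cd247, the kinases Lck, Fyn and Zap70, the adaptors Lcp2 and Sla, and the surface molecules Cd2, Thy1, Ptprc and Cd27. The T cell receptor loci were met as well. Tcrb had 2 domains, of 10.4 and 19.005 kb, the wider one over Trbc2. A domain of 14.8 kb covered Trdc, which lies within the Tcra and Tcrd loci, and 1 of 11.6 kb reached the end of Tcrg. Of 15 genes of the Notch pathway, 6 had their body in a domain, and by start the count was 5 of 11. The 6 were the receptor Notch1 (22.8 kb at its start and 16.4 kb further on), the targets Hes1, Hes5, Nrarp and Ptcra, and Il2ra with 31.8 kb.

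Cytokine and homing receptors gave 5 of 20 (Il2ra, Ccr9, Cxcr4 and Itga4 among them), and natural killer and innate lymphoid genes gave 3 of 12 (Zbtb16, Tbx21, Rora), beside 2.44% of all protein-coding genes. By start these counts were 4 of 14 and 1 of 9, beside 1.45%. Wnt targets gave 2 of 15, Tcf7 and Rnf43, a ligase that removes Wnt receptors. Growth and survival genes gave 1 of 15, the cyclin Ccnd3. Of the noncoding RNA genes, 2 of 8 matched (Malat1 and Neat1). None of 20 housekeeping genes, 12 B lineage, 12 myeloid, 20 fibroblast and 14 cohesin and CTCF genes had its body in a domain. All 20 housekeeping genes and all 14 cohesin and CTCF genes carried H3K27ac peaks narrower than 10 kb or without a wide partner. The median body of the housekeeping list was 5.13 kb and that of the cohesin and CTCF list 61.027 kb.

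Most of the acetylated length of the domains was also covered in the knockout. Of the domains' bp, 96.2% were covered in the second empty vector list, 91.1% in the first knockout list and 91.5% in the second. Narrower regions were covered less in all 3 lists: 91.3%, 84.8% and 85.0% for 5 to 10 kb, 88.9%, 82.1% and 82.5% for 2 to 5 kb, and 81.8%, 65.0% and 65.6% under 2 kb. So were the 213 peaks of at least 10 kb in the first list without a wide partner in the second, at 86.2%, 83.6% and 84.4%. Of those 213, 5.63% were under 50% covered in both knockout lists. Under 50% covered in both knockout lists were 16 domains (2.08%), where the share was 20.1% over all H3K27ac regions held by both empty vector lists and 5.32% over those of 5 to 10 kb. Wholly covered in both were 117 domains (15.2%), beside 16.7% of all such regions. Since a region was chosen for being wide with the empty vector, a narrower call elsewhere is built in, and these shares are not tests.

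**Figure D1:**
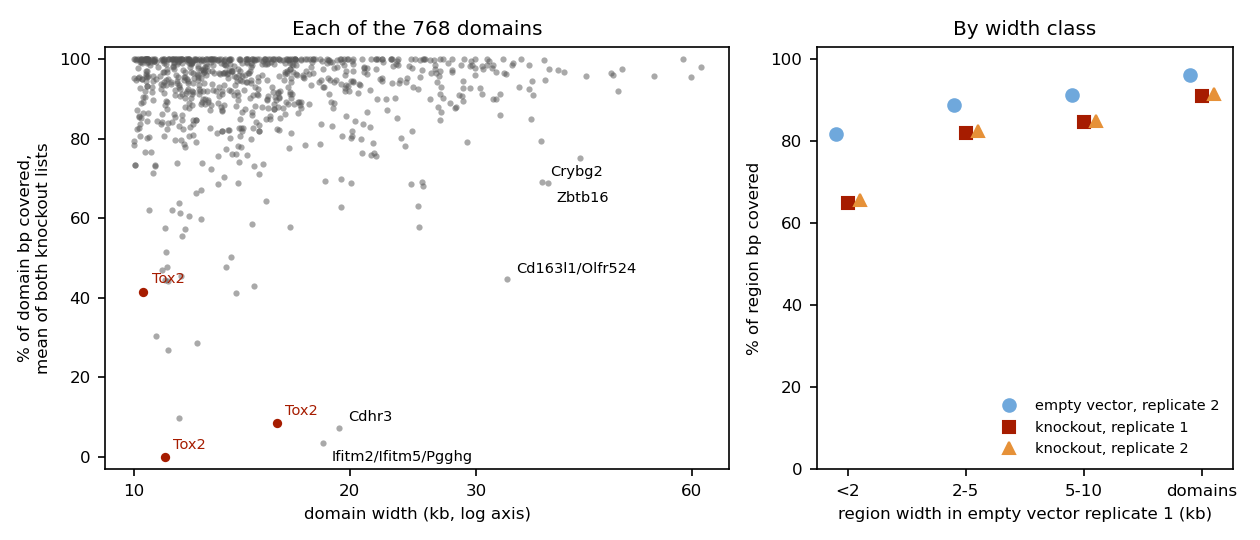
Share of each region's bp covered by H3K27ac peaks. Left: each point is 1 of the 768 domains, with its width on a log axis (kb) and the mean covered share of both knockout lists. The 3 Tox2 domains are in red. Right: all bp of a width class, in the second empty vector list and in both knockout lists, and the domains are the class with the highest shares (96.2%, 91.1% and 91.5%). The 213 wide peaks of the first list without a wide partner are not drawn.

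Fewer domains were met by a single peak in each knockout list than in the second empty vector list. A single peak of the second empty vector list met 553 domains (72.0%), and a single peak of each knockout list met 436 (56.8%). The domain rule used that empty vector list and neither knockout list, which favoured this order. How often knockout domains were in several pieces in empty vector cells was not counted. Whole lists held 981 and 934 peaks of at least 10 kb in empty vector cells against 1065 and 1105 in knockout cells. A knockout domain found by the same rule overlapped 558 of the 768 (72.7%), and 116 had no peak of 10 kb or more in either knockout list. The rule was also applied to the knockout. The same rule gave 868 domains in the knockout lists, of which 557 (64.2%) overlapped an empty vector domain. Their bp were covered to 88.4% and 88.0% in the empty vector lists and 95.9% in the second knockout list, and 18 of them (2.07%) were under 50% covered in both empty vector lists.

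The most negative differences in covered length included 2 of the 3 domains of Tox2. A domain over Ifitm2, Ifitm5 and Pgghg, the first 2 of which belong to the interferon-induced transmembrane family, was covered over 18.4 and 18.4 kb in empty vector cells against 0 and 1.35 kb without TCF-1 (chr7:140942234-140960590). One over Cd163l1 and Olfr524 went with 33.2 and 32.2 kb against 13.5 and 16.2 kb (chr7:140185757-140218962). All 3 domains of Tox2, an HMG-box relative of Tox, were under 50% covered in both knockout lists. Their values were 15.8 and 15.8 against 1.17 and 1.53 kb, 10.3 and 10.3 against 3.99 and 4.59 kb, and 11.1 and 10.3 kb against 0 and 0. At Cdhr3, a cadherin-related gene, they were 19.4 and 18.4 against 1.38 and 1.48 kb, and next to Emb, which encodes the adhesion protein embigin, 11.6 and 11.3 against 0.708 and 1.58 kb. In none of these 7 did the pairs of lists overlap.

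Some large domains narrowed by a part of their length. At Zbtb16, which encodes the innate lymphocyte factor PLZF, H3K27ac covered 37.8 and 36.3 kb in empty vector cells against 26.6 and 25.6 kb in knockout cells. Crybg2 had 37.1 and 36.2 against 26.9 and 24.3 kb, Eps15l1 had 24.976 and 24.976 against 13.4 and 15.5 kb, and 1 of the Nfib domains had 41.9 and 40.2 against 31.6 and 31.4 kb. The Tbx21 domain had 24.3 and 24.3 against 16.4 and 17.0 kb. Of the 2 domains of Rora, another gene of innate or effector lymphocytes, 1 was covered over 12.3 and 12.2 kb against 10.982 and 11.8 kb, lower in both knockout lists. The other had 14.6 and 13.7 against 14.5 and 14.1 kb, where the lists overlapped.

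**Figure D2:**
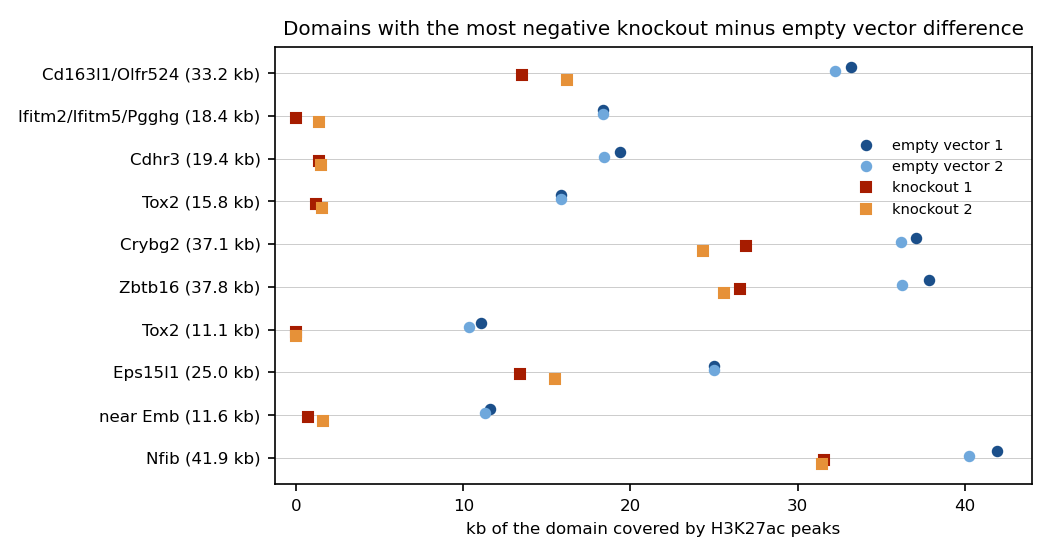
Covered kb in each of the 4 H3K27ac lists for the 10 domains with the most negative difference between the knockout mean and the empty vector mean. Circles are the empty vector lists and squares the knockout lists. In each of the 10 both squares lie left of both circles, and the 11.1 kb Tox2 domain is at 0 in both knockout lists.

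The other domains under 50% in both knockout lists were at Olfr525, Lrrc27, Etv5, Limch1, Stard3nl (the domain that reaches Tcrg, 11.6 and 11.6 against 5.05 and 5.58 kb), Cdc6 and Rara, and near Lif, Adipoq and Atf7ip. Of these 16 domains, 3 had TCF-1 in both TCF-1 lists: Cd163l1 and Olfr524, the domain near Adipoq, and the Tox2 domain of 10.3 kb. Over all 768 domains, 231 (30.1%) had TCF-1 in both lists. Of the 16, 4 (Lrrc27, Cd163l1, Olfr525 and Ifitm2) lay in 1 stretch of chromosome 7 from 139.2 to 141.0 Mb, which was picked out after its values were seen. Its 5 domains were covered over 95.0 and 92.5 kb in empty vector cells against 34.9 and 36.8 kb in knockout cells. The 88 narrower regions there went the same way, with 183 and 161 against 69.9 and 72.1 kb. SMC1 peaks in the 5 domains numbered 25 and 24 against 21 and 17, and in the 88 narrower regions 59 and 46 against 69 and 68.

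Gains inside a domain are bounded, because the first empty vector list covers each domain by construction. The most positive difference was at Tctex1d1, with 15.2 and 11.8 kb against 15.2 and 15.2 kb. The others among the 10 most positive were at Rreb1, Actn4, Taf3, Xrcc6, Rapgef2, Fam169b and Pgpep1l, and near Bcl11b, Fhl2 and Zfp36l2. Broader stretches in the knockout showed in its own domains. Near Gatd3a a domain of 46.5 kb was covered over 26.8 and 24.6 kb in empty vector cells against 46.5 and 44.1 kb in knockout cells. Med9 had 12.7 and 12.4 against 31.6 and 29.1 kb, Dbh had 7.22 and 5.81 against 25.2 and 20.5 kb, and Disp1 had 8.91 and 8.43 against 25.014 and 23.1 kb. Ttc12 had a domain of 14.0 kb in both knockout lists and 0 kb in both empty vector lists. These 5 genes were picked for their values.

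Domains of T lineage, T cell receptor and Notch genes were mostly covered in the knockout too. Of the 44 domains that met such a gene, 28 (63.6%) were covered to 90% or more in both knockout lists, where the share of all domains was 60.8%. The 3 below 50% were the Tox2 domains. Tcf7 was covered over 16.8 and 16.8 kb of 16.8 kb in the knockout, Gata3 over 11.7 and 10.6 of 11.8 kb, and the start domain of Bcl11b over 14.4 and 14.4 of 14.6 kb. Notch1 was covered over 22.8 and 22.8 of 22.8 kb and Il2ra, the chain of the interleukin 2 receptor that marks the DN3 stage, over 28.7 and 28.4 of 31.8 kb. Ptcra had 14.1 and 14.2 of 16.2 kb. The second empty vector list covered 11.8 kb of the Gata3 domain, 30.9 kb of that of Il2ra and 14.9 kb of that of Ptcra. These were thus lower in both knockout lists than in either empty vector list, which those of Tcf7, Bcl11b and Notch1 were not.

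TCF-1 met more of the domains than of narrower regions, but was not denser in them. Its 2 lists had a peak in 295 (38.4%) and 347 (45.2%) domains, beside 12.2% and 12.9% of all H3K27ac regions and 22.3% and 25.3% of those of 5 to 10 kb. Both lists met 231 domains, 1 list met 180 and neither met 357. Per 10 kb, the domains had 0.344 and 0.370 TCF-1 peaks. Regions of 5 to 10 kb had 0.394 and 0.453, those of 2 to 5 kb 0.759 and 0.764, and those under 2 kb 0.393 and 0.422. The 213 wide peaks of the first list alone, at 0.338 and 0.334, were close to the domains. With peaks of both lists only, the share of domains with TCF-1 was 26.8%, and 20.7% with the wider peaks of each list.

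The domain with most TCF-1 peaks was the gene-free stretch of 58.3 kb on chromosome 15, with 6 in each list. Sla and Tg shared 1 with 7 and 3. Gpr25, an orphan receptor gene, had 4 and 5, Smad3, a transducer of TGF-beta signals, 4 and 4, and the histone cluster 4 and 4. The domain next to that of Sla in Tg had 3 and 4, as had a domain near Ankrd46 and 1 at Ccdc162. Tle2 and Tle5, relatives of the Groucho corepressors that bind TCF factors, had 4 and 3, and so had a domain beside Btg2, an antiproliferative gene. The intergenic domain next to Tcf7 had 3 and 3, and the one over the start of Tcf7 2 and 2. In the knockout, H3K27ac covered the chromosome 15 stretch over 58.3 and 58.3 kb and Gpr25 over 23.2 and 22.7 kb of 23.2 kb. Tle2 and Tle5 were covered over 17.6 and 17.6 kb in empty vector cells against 16.6 and 14.6 kb in the knockout. The Tg domain next to that of Sla had 35.9 and 34.7 kb against 29.6 and 31.3 kb. Both were thus lower in both knockout lists.

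Set by TCF-1, the mean covered share in the knockout lists was 92.7% and 93.2% for the 231 domains with TCF-1 in both lists, 90.1% and 90.8% for the 180 with 1, and 89.7% and 89.8% for the 357 with none. The second empty vector list covered 96.6%, 95.8% and 96.2% of them. Domains with TCF-1 in both lists were wider, with a median of 15.4 kb against 14.0 and 13.6 kb, and held a gene start more often, 33.8% against 31.1% and 18.8%.

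TCF-1 peaks inside domains lay less often near gene starts than those in the other acetylated regions, by share. Within 1 kb of a gene start lay 18.5% of the 439 peaks of the first list in domains and 17.8% of the 473 of the second, whereas 62.1% and 58.5% did in the other H3K27ac regions. A TCF-1 peak of induced fibroblasts overlapped 24.6% and 24.3% of them, against 76.2% and 72.9% in other regions. Away from starts the shares were 15.4% and 16.5% in domains and 52.2% and 47.5% elsewhere. At such peaks away from starts, NIPBL of both empty vector lists was found at 49.2% and 50.1% in domains and 51.4% and 47.0% elsewhere, and CTCF at 22.6% and 21.1% in domains against 36.6% and 33.3% elsewhere. The peaks of 1 list share a library, so these shares carry no test.

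SMC1 covered more of the domains in both knockout lists than in either empty vector list, as it did over all H3K27ac regions. Its peaks covered 28.7% and 21.1% of the domains' bp in empty vector cells against 36.8% and 35.4% in the knockout, means of 24.9% ± 5.38 and 36.1% ± 0.939 (SD, n = 2 lists each), with a two-sided exact permutation p of 0.333. Peaks per domain were 6.36 and 5.24 against 6.65 and 6.3997, a difference of 0.729 in the means of 5.80 ± 0.794 and 6.53 ± 0.180 (SD, n = 2 lists each), again with an exact permutation p of 0.333. The smallest p that 2 lists against 2 can give is 0.333, so no difference here could pass 0.05. Over all H3K27ac regions, SMC1 covered 24.7% and 23.6% of the bp in empty vector cells against 31.9% and 32.1% in the knockout. The whole SMC1 lists covered 37.5 and 38.7 Mb against 52.3 and 56.4 Mb. Covered bp were not compared at equal list length. When every SMC1 list was held to the length of the shortest by keeping its widest peaks, the difference in peaks per domain was -0.335, so the direction by peak number depends on list length.

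More SMC1 peaks in both knockout lists than in either empty vector list were counted in 170 domains (22.1%), where 6.53% of all H3K27ac regions and 13.6% of those of 5 to 10 kb did so. Fewer were counted in 68 (8.85%), beside 3.13% and 8.67%. At equal list length the shares were 8.59% with more and 18.0% with fewer. Single lists moved these values: the difference in peaks per domain was 1.29 without the first empty vector list and 0.168 without the second. The share with more was 46.6% without the first empty vector list and 33.9% and 36.6% without the first and second knockout lists, and the share with fewer was 14.2% to 24.7% without any 1 of the 4. With 1 list in a group, the lists separate in more domains by construction. By covered bp, 551 domains (71.7%) were higher in both knockout lists, beside 32% of all regions and 57.7% of those of 5 to 10 kb, and 15 (1.95%) were lower, beside 4.07% and 5.5%. Of the 68 domains with fewer peaks, 37 were covered over more bp in both knockout lists and 11 over less. A longer region holds more peaks, and the domains' shares are not read as particular to them.

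Nfib, which encodes a factor of the nuclear factor I family, had the most positive differences in its 2 widest domains. Its 3 domains held 4 and 3 SMC1 peaks in empty vector cells against 18 and 16 in the knockout, 6 and 5 against 19 and 16, and 0 and 0 against 9 and 7. In kb, SMC1 covered 2.64 and 1.44 against 10.3 and 9.85, 3.19 and 2.30 against 11.969 and 12.4, and 0 and 0 against 4.57 and 5.13. None of the 3 had a CTCF peak in any DN3 list, and TCF-1 had 1 peak, in 1 list. H3K27ac covered less of the first 2 of them in both knockout lists: that of 41.9 kb as given above, and that of 47.4 kb over 44.6 and 42.6 kb against 47.4 and 47.4 kb. The pairs of SMC1 lists did not overlap in any of the 3.

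Other genes also had domains with more SMC1 peaks. At Gse1 a domain of 22.9 kb had 10 and 5 against 18 and 16, and the widest one had 23 and 17 against 28 and 25. A domain 48.6 kb from Kctd1 had 2 and 3 against 13 and 10, and the domain 152 kb from Sdk2 had 14 and 10 against 19 and 19. Runx1 had 9 and 3 against 14 and 13 in its domain of 23.9 kb. Its domain of 12.8 kb had 4 and 3 against 5 and 6, where the lists overlapped by covered kb. Among genes of the lists, domains of Itga4, Tox, Cd27, Tcf12 and Ccr9 also had more, such as Itga4, an integrin chain used in homing, with 5 and 3 against 8 and 7.

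Bcl11b led the domains with fewer peaks. Its start domain had 12 and 10 SMC1 peaks in empty vector cells against 4 and 7 in knockout cells, but these covered more, 14.0 and 12.6 kb against 8.73 and 6.32 kb. A stretch 156 kb from Ptprc went from 8 and 6 peaks to 3 and 1, covering 5.14 and 7.33 kb against 7.96 and 9.29 kb. The order was the same at Septin9 and Patz1 and near Armc12, Srp14 and Pck1, where fewer peaks had a higher mean covered length. Fcrla and the domain near Pwwp2b were lower in the knockout by both measures. Fcrla, a gene of the Fc receptor-like family, had 12 and 10 against 6 and 7 peaks over 6.33 and 4.24 against 2.52 and 3.41 kb. The Pwwp2b domain, part of the chromosome 7 stretch above, had 8 and 7 against 4 and 4 peaks. Of the list genes, Ikzf1, Ikzf2, Hes1, Runx1 (its 11.1 kb domain), Cd3d with Cd3g, and both Bcl11b domains had fewer peaks that covered more kb in both knockout lists.

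**Figure D3:**
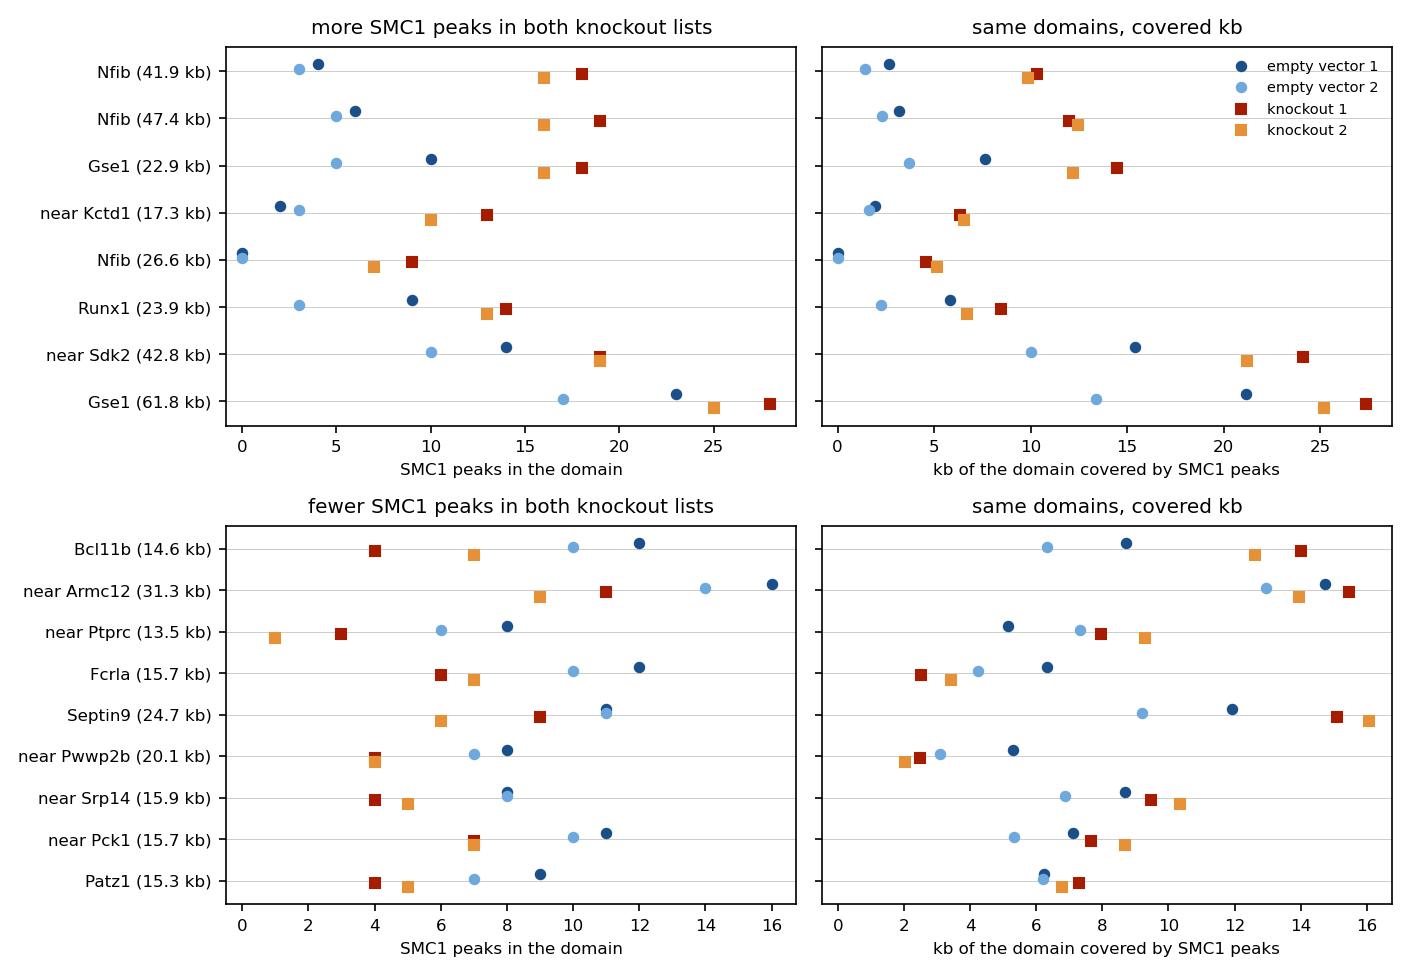
SMC1 peaks (left) and kb covered by SMC1 peaks (right) in each of 4 lists, for domains among the 10 with the largest difference in each direction whose pairs of lists did not overlap in peak number. Circles are empty vector lists and squares knockout lists. In the lower row the squares lie left of the circles by peak number, but by covered kb this holds only for Fcrla and the domain near Pwwp2b.

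TCF-1 in the domain went with more SMC1 in every list. Domains with TCF-1 in both lists had 37.1% and 27.2% of their bp covered by SMC1 in empty vector cells against 45.3% and 43.6% in the knockout, and domains without TCF-1 had 23.1% and 17.1% against 31.1% and 29.96%. Higher coverage in both knockout lists was found in 69.3% of the former and 72.5% of the latter. No test of the difference was made.

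NIPBL in the domains followed its longest list. Peaks per domain were 1.05 and 1.79 in empty vector cells against 2.67 and 1.77 in the knockout, a difference of 0.807 (exact permutation p = 0.667, n = 2 lists each), and the covered share was 3.48% and 7.71% against 17.6% and 7.79% (exact permutation p = 0.333). The second list of each state had nearly the same values, and the first list of each state carried the difference. Without the first knockout list the difference in peaks per domain was 0.359, and it was 0.437 without the first empty vector list and 1.25 without the second knockout list. At equal list length it was -0.0111. More peaks in both knockout lists were counted in 148 domains (19.3%), beside 3.81% of all regions, and fewer in 6 (0.781%), beside 0.225%; for regions of 5 to 10 kb these were 10.8% and 0.324%. At equal list length both counts were 3.91% of the domains. By covered bp, 45.7% of the domains were higher, beside 13.1% of all regions and 30.8% of those of 5 to 10 kb, and 0.521% were lower, beside 0.311% and 0.36%. The largest differences in peak number, named after their values were seen, were near Sdk2 (1 and 5 against 10 and 6), at Nfib (3 and 1 against 6 and 5) and at Ikzf1, the gene of the lymphoid factor Ikaros (2 and 2 against 6 and 5). Fewer NIPBL peaks were found in 2 domains of histone genes, with 5 and 5 against 2 and 4 and 4 and 4 against 2 and 3.

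CTCF was sparser in the domains than in narrower regions in each list. Its peaks numbered 0.691 and 0.945 per 10 kb in empty vector cells against 0.998 and 0.865 in knockout cells, where regions of 2 to 5 kb had 1.31 and 1.72 against 1.82 and 1.51. SMC1 was nearly as dense in domains (3.82 and 3.15 against 4.002 and 3.85 per 10 kb) as in regions of 2 to 5 kb (3.82 and 3.795 against 4.04 and 4.09). CTCF peaks per domain were 1.15 and 1.57 in empty vector cells against 1.66 and 1.44 in the knockout, a difference of 0.188 (exact permutation p = 0.667, n = 2 lists each) that was -0.0768 at equal list length and -0.0228 without the first empty vector list. It was 0.399 without the second empty vector list, and 0.0781 and 0.298 without the first and second knockout lists. More peaks in both knockout lists were found in 61 domains (7.94%), beside 1.68% of all regions, and fewer in 15 (1.95%), beside 0.512%, and for regions of 5 to 10 kb the shares were 3.45% and 0.899%. At equal list length 3.13% of the domains had more and 4.95% fewer. By covered bp 22.0% were higher, beside 8.26% and 13.7%, and 4.04% lower, beside 1.89% and 3.17%. Tle2 with Tle5 was among the former with 6 and 6 against 11 and 8 peaks, as was the domain of the cytokine genes Il4 and Il13 with 2 and 4 against 5 and 6. Slc43a2 was among the latter with 2 and 2 against 0 and 0. These examples were picked for their values.

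**Figure D4:**
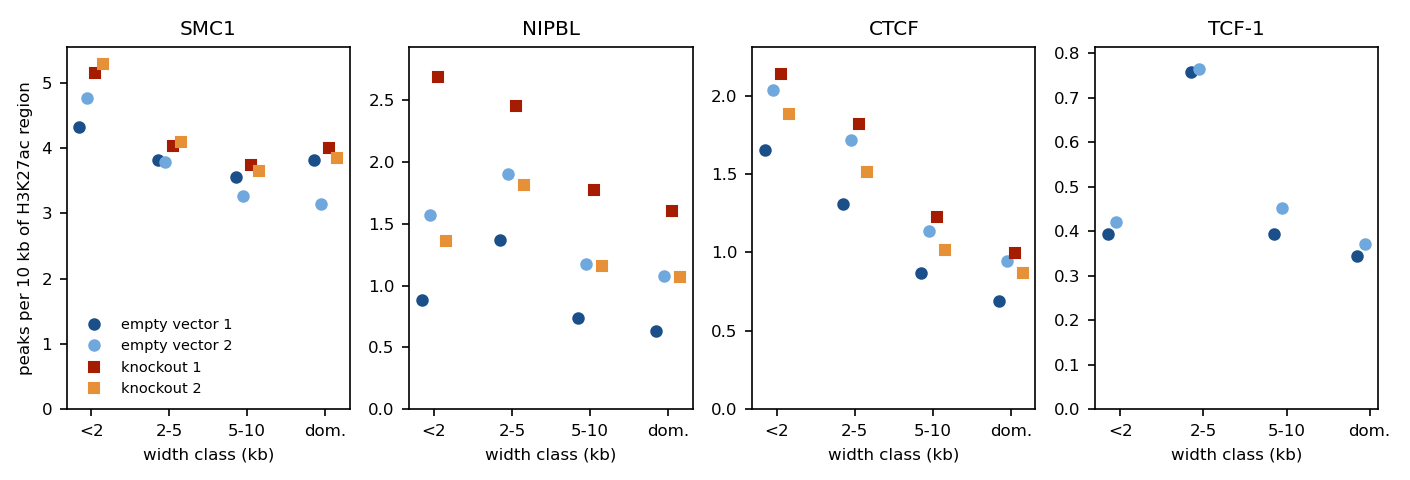
Peaks per 10 kb of H3K27ac region by width class (under 2, 2 to 5 and 5 to 10 kb, and the domains) for each DN3 list. Circles are empty vector lists and squares knockout lists. CTCF and TCF-1 have their lowest values in the domains (0.691 to 0.998 and 0.344 to 0.370), while SMC1 in the domains spans 3.15 to 4.002.

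In fibroblasts the same stretches of genome held fewer CTCF and SMC1 peaks than in the DN3 lists. CTCF had 0.577 and 0.591 peaks per domain in untreated cells and 0.951 and 0.891 after induction of TCF-1, a difference of 0.337 (exact permutation p = 0.333, n = 2 lists each). At equal list length that difference was 0.0234, with 3.13% of the domains higher and 2.08% lower in both induced lists. Both induced lists were higher in 142 domains (18.5%), beside 4.81% of all H3K27ac regions, and lower in 5, beside 0.145%, with 9.24% and 0.144% for regions of 5 to 10 kb. By covered bp 42.8% were higher, beside 18.9% and 29.9%, and 0.260% lower, beside 0.246% and 0.144%. SMC1 had 1.65 peaks per domain untreated and 1.69 induced, with 1 list each and so no replicate check. In DN3 cells SMC1 was thus at 5.24 to 6.65 peaks per domain. Any SMC1 peak was found in 72.7% and 71.9% of the domains in fibroblasts against 99.1% to 99.6% in the DN3 lists. For regions of 5 to 10 kb the shares were 63.9% and 64.5% against 94.6% to 96.6%. Over all H3K27ac regions they were 47.9% and 48.3% against 59.4% to 65.8%. All these regions were chosen for H3K27ac in DN3 cells, and the SMC1 order is not particular to the domains. Any CTCF peak was found in 56.25% and 53.6% of the domains in induced fibroblasts against 62.2% to 74.6% in the DN3 lists. Over all H3K27ac regions these shares overlapped, at 29.3% and 27.1% against 25.3% to 32.5%. In untreated fibroblasts they were lower in both sets, at 41.4% and 41.5% of the domains and 20.2% and 21.5% of all regions. TCF-1 peaks in the domains were more numerous in fibroblasts: the list of induced fibroblasts, which is longer than those of DN3 cells, had 0.986 peaks per domain against 0.572 and 0.616. It met 331 domains (43.1%), beside 30.2% of all regions and 40.6% of those of 5 to 10 kb.

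Position within the domain differed between the proteins. TCF-1 and NIPBL peaks sat away from the edges: of 5 equal bins, the 2 outermost, which would hold 2 in 5 of evenly spread midpoints, held 32.2% and 31.3% of TCF-1 midpoints and 32.2% and 33.3% of those of NIPBL with the empty vector. CTCF was spread almost evenly, with 40.9% and 39.1% in the outermost bins, and SMC1 was between, with 37.4% and 36.9%. In the knockout the shares were 34.5% and 31.7% for NIPBL, 39.2% and 41.0% for CTCF, and 38.9% and 38.9% for SMC1. Outside, in the 10 kb before and after each domain, TCF-1 was at 0.00885 and 0.00794 and at 0.00898 and 0.0102 midpoints per kb, and in the bin next to the first at 0.0376 and 0.0450 per kb. CTCF was at 0.0445 and 0.0557 per kb before the domains and at 0.0630 and 0.0857 in that bin, a smaller step. Midpoints of 1 list are not replicates, and these shares are a description.

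**Figure D5:**
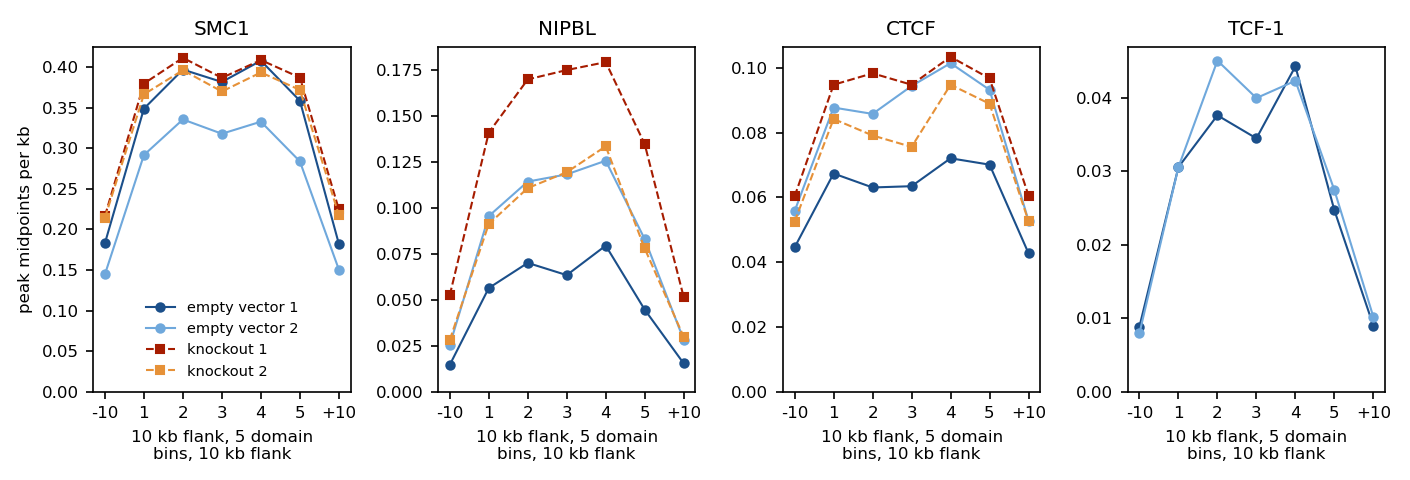
Peak midpoints per kb in the 10 kb before each domain, in 5 equal bins along the chromosome, and in the 10 kb after it, summed over the 768 domains, for each DN3 list. Solid lines with circles are empty vector lists and dashed lines with squares knockout lists. TCF-1 and NIPBL are lower in the first and last bins than in the middle ones, and CTCF is nearly level inside the domains.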

How the data were processed

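ChIP-seq peak lists of 18 DN3-like and 7 fibroblast samples were used, grouped by the antibody and treatment in the labels. Reads were aligned and peaks called by the authors with Bowtie2, MACS2 and bedtools on mm10, per the submitters' processing notes, which give no versions, controls or thresholds. There is 1 list per sample. Lists of SMC1, CTCF and TCF-1 hold positions alone. The H3K27ac and NIPBL lists as deposited also give a peak score, a fold enrichment, and −log10 p and −log10 q, in the layout of the authors' MACS2 peak tables. No summit column is given, and the smallest deposited −log10 q of the H3K27ac lists was 1.01.

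Positions were read as 0-based starts and printed 1-based. Peaks were counted in a domain when they overlapped it by at least 1 bp. Covered bp were the summed overlaps of the peaks of a list with the domain, taking the peaks of a list as not overlapping each other. Gene bodies, starts and promoter windows came from RefSeq tables for GRCm38.p6, matched by symbol and without extension of the gene. Groups of 2 lists were compared by a two-sided exact permutation test over lists. A domain was counted as having more or fewer peaks when both lists of a group lay beyond both of the other. Genes and domains were named by rule: the 10 widest, the 10 with most TCF-1 peaks, the 10 most negative and positive H3K27ac differences, the 10 largest SMC1 differences in each direction without overlap of the lists, the 5 nearest the threshold on each side, and genes of the fixed lists. Some genes these rules select are not reported here. The members and lists were chosen with earlier results of these data known. Counting was tested on simulated intervals, and bedtools 2.31.1 gave the same 768 domains and equal counts in 25 of 25 lists. Python 3.11.15, numpy 2.4.6, pandas 2.3.3 and scipy 1.17.1 were used. Alternatives were other widths, counting rules, list lengths, peak thresholds and leaving out each list.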

Additional observations from a re-analysis of the deposited data

Results flagged for a closer look

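By peaks per domain and by covered bp, SMC1 in the domains differed with TCF-1 in opposite directions in the DN3 line and the fibroblasts. With TCF-1 minus without, the difference in SMC1 peaks per domain was -0.729 in DN3 cells and 0.0326 in fibroblasts, and the difference in the percent of domain bp covered was -11.2 in DN3 cells and 0.672 in fibroblasts. These were singled out because the DN3 lists differed one way by both measures and the single pair of fibroblast lists the other way. The fibroblast direction depends on the measure: the share of domains with any SMC1 peak was 72.7% untreated and 71.9% induced. The difference between the lines was not tested: the fibroblasts had 1 SMC1 list in each state. In DN3 cells the comparison is of a knockout with an empty vector and in fibroblasts of an induction with no treatment. The DN3 difference in peaks per domain has the other sign at equal list length.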

How the results depend on the processing

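Lists without read totals, 2 lists a group and unequal list lengths limit every comparison here: depth is unknown, and no permutation p can be under 0.333. In all, 504 alternative values were computed. The rule gave 1242, 482 and 267 domains at minimum widths of 8000, 12000 and 15000 bp, and 934 to 981 from 1 empty vector list alone. At equal list length (the widest peaks, or for NIPBL those of highest −log10 q) the differences in peaks per domain changed sign, to -0.335 for SMC1, -0.0111 for NIPBL and -0.0768 for CTCF. Shares of domains with more and fewer peaks were then 8.59% and 18.0% for SMC1, 3.91% and 3.91% for NIPBL, 3.13% and 4.95% for CTCF and 3.13% and 2.08% for fibroblast CTCF. By covered bp they were 71.7% and 1.95%, 45.7% and 0.521%, 22.0% and 4.04%, and 42.8% and 0.260%. With peaks at or above the list median, fewer SMC1 peaks were found in 5.47%, more CTCF in 4.43%, and more and fewer fibroblast CTCF in 9.64% and 0.130%. Fewer NIPBL peaks were found in 0.375% at 15000 bp and 0.521% when the second list drew the domains, and fewer fibroblast CTCF in 0.403% at 8000 bp. Knockout H3K27ac covered 87.9% with peaks at or above the median, and 90.4%, 92.1% and 92.3% at 8000, 12000 and 15000 bp. Domains under 50% covered were 3.78% with the median filter and 1.24% at 12000 bp. TCF-1 peaks per domain were 0.257 with the median filter (20.7% of domains), 0.326 with sites of both lists (26.8%), and 0.516, 0.698 and 0.816 at the 3 widths, with 50% of domains at 15000 bp. By start, 253 genes were in domains. Alternatives chosen after seeing the data gave 20.8%, 16.9%, 17.1% and, drawn by the second list, 18.7% of TCF-1 peaks near a start, 27.6%, 21.7%, 20.4% and 24.7% shared with fibroblasts, and 29.3%, 32.9%, 34.9% and 33.2% in the outermost bins. Leaving out 1 list at a time gave SMC1 differences of 0.168 to 1.29, with more in 28.8% to 46.6% and fewer in 14.2% to 24.7% of domains. The ranges were 0.359 to 1.25, 21.6% to 57.2% and 1.43% to 4.95% for NIPBL, -0.0228 to 0.399, 9.77% to 23.8% and 3.26% to 13.5% for CTCF, and 0.307 to 0.367, 22.1% to 27.1% and 0.781% to 1.30% for fibroblast CTCF. CTCF was at -0.0228 without the first empty vector list. Knockout coverage was 91.1% to 91.5%, with 2.47% to 2.47% of domains under 50%. TCF-1 was at 0.572 to 0.616 peaks per domain in 38.4% to 45.2% of domains, 17.8% to 18.5% near a start, 24.3% to 24.6% shared with fibroblasts and 31.3% to 32.2% in the outermost bins. Of the domains named for fewer SMC1 peaks, 7 had a positive difference in covered bp: Ptprc 2389, Patz1 821, Septin9 5010.5, Bcl11b 5784.5, Armc12 852.5, Srp14 2116 and Pck1 1956. Without the second empty vector list the H3K27ac difference was -0.656 kb near Bcl11b and -0.510 kb at Rreb1, against 2.83 and 3.93 kb without the first, since the first list covers each domain by construction. The cause of the other shifts was not tested.

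With the replicate number as a block, the mean differences were 0.729 for SMC1, 0.807 for NIPBL, 0.188 for CTCF and 0.337 for fibroblast CTCF, as without it, and 30.7% of domains had more SMC1 and 13.0% fewer in both same-numbered pairs. The deviations of same-numbered lists correlated at -0.00712 for H3K27ac, 0.0376 for SMC1, -0.322 for NIPBL and -0.211 for CTCF, and the labels tie no number to a shared batch, so the numbers were not taken to pair the lists.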

Other observations

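Noncoding genes inside the domains included 248 long noncoding RNA genes beside the 16 microRNA genes. Malat1, an abundant nuclear RNA, lay in a domain of 12.1 kb that was covered over 11.6 kb in the second empty vector list and 10.029 and 10.3 kb in the knockout lists and held 2 TCF-1 peaks in each list. The immunoglobulin heavy chain locus Igh, which is rearranged in B cells, had a domain of 10.4 kb.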
